A study of Bos taurus with 2 samples.

Results

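In a single-nucleus RNA library of bovine blastoids, 436 barcodes carried few transcripts in total but an unusually large portion of transcripts made inside mitochondria. They were selected on measured values: at least 500 detected genes, under 4000 UMIs (unique molecular identifiers, each counting 1 captured RNA molecule), and from 2.5% to under 10% of those UMIs from the 13 mitochondrial mRNAs. They made up 22.3% of the 1957 blastoid barcodes (exact 95% interval 20.5% to 24.2%), within a series of 2901 barcodes. The question was what else, apart from the mitochondrial mRNAs, sets these barcodes apart from the 1220 blastoid barcodes of the same depth with under 2.5%, called mitochondrial-low below. Both the depth and the mitochondrial share are therefore descriptions of how the barcodes were found and not results.

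Mitochondria keep a small circular genome, which in mammals encodes 13 proteins, all of them subunits of the respiratory chain or of ATP synthase. Every other mitochondrial protein, including most subunits of the same complexes, is encoded in the nucleus, translated on cytosolic ribosomes and imported. Nuclei hold neither mitochondria nor cytosolic ribosomes, so in nuclear preparations mitochondrial mRNA and ribosomal protein mRNA are commonly read as cytoplasmic material carried along with the nuclei, while intron-rich pre-mRNA of very long genes marks nuclear RNA.

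Blastoids are blastocyst-like structures grown from cultured stem cells. Wild-type bovine bEPSC, bXEN and bTSC lines were put together, 8, 8 and 16 cells per microwell, in medium with 20 ng/ml LIF, 10 ng/ml activin A, Chir99021 and the CEPT supplement, after the iMEF feeder cells had been depleted. The other library came from wild-type bovine blastocysts of day 8. Both were frozen, nuclei were released with a 10x Genomics nuclei isolation kit, and libraries were made with the version 3.1 3′ chemistry. The labels do not give the number of blastoids or embryos pooled, and each group had 1 library, so no difference given here has a replicate check and none was tested. Intervals are exact, at 95%, and cover counting error only.

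The libraries held 7575395 (blastoid) and 7029253 (blastocyst) UMIs, with medians of 2012 and 6920 UMIs per barcode. In the blastoid library 288 barcodes had 4000 or more UMIs and under 10% mitochondrial UMIs (called deep), 8 barcodes had under 500 genes and 5 shallow barcodes passed 10%. Only 1 barcode sequence occurred in both libraries. Doublets were not removed. Removing the 30 blastoid barcodes with the highest doublet scores would have taken 12 of the 436 barcodes.

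The mitochondrial share of the 436 barcodes had a median of 3.30%, with quartiles at 2.82% and 4.29% and a maximum of 9.92%. Most lay close to the limit that chose them: 145 (33.3%) had from 2.5% to 3%, 162 (37.2%) from 3% to 4%, 59 (13.5%) from 4% to 5%, and 70 (16.1%) from 5% to 10%. The number of shallow barcodes per bin of share peaked near 1% and declined through the limit without a gap. Just outside the limit, 88 barcodes with 2.25% to 2.5% had a median of 1931 UMIs and 16.1% ribosomal protein UMIs. Just inside it, 82 barcodes with 2.5% to 2.75% had a median of 1979 UMIs and 15.9%. A barcode of this depth carried few mitochondrial UMIs, with a median of 65.5 among the mitochondrial-rich and 25 among the mitochondrial-low. For 202 of the 436 (46.3%) and for 290 of the 1220 (23.8%), the barcode's own counting interval held 2.5%. The selection thus took the upper range of a continuous distribution.

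**Figure D1:**
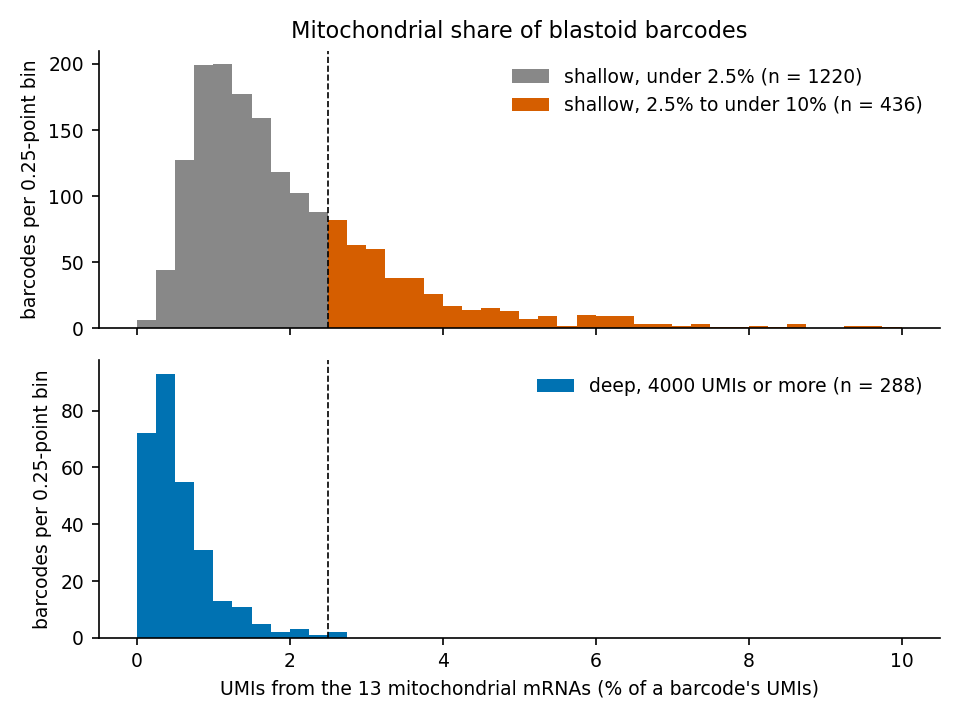
Histogram of the percentage of a barcode's UMIs that came from the 13 mitochondrial mRNAs (x axis) against the number of blastoid barcodes per bin of 0.25 percentage points (y axis), for shallow barcodes (upper panel) and deep barcodes (lower panel). The 436 mitochondrial-rich barcodes right of the dashed line at 2.5% continue the slope of the 1220 to its left, and few of the 288 deep barcodes reach the line.

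In depth and complexity the mitochondrial-rich and mitochondrial-low barcodes lay side by side. Median UMIs were 1901.5 and 1931.5, and median detected genes 1045.5 and 1096. With every barcode thinned to 1000 UMIs, the medians were 646.5 and 668 genes, against 792 in deep barcodes. The frequency of mitochondrial-rich barcodes also varied little with depth among shallow barcodes. It was 23.8% of barcodes with 1000 to 1500 UMIs, 27.1% with 1500 to 2000, 25.2% with 2000 to 2500 and 30.2% with 2500 to 4000, with overlapping intervals. Above 4000 UMIs it was 2.20% (2 of 91 barcodes with up to 10000 UMIs), and among 197 barcodes with 10000 or more it was 0, for which 3 counts, the limit used for a share of 0, would be 1.52%.

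Together the 436 barcodes carried 860188 UMIs, of which 33427 were mitochondrial, and the 1220 carried 2385836, of which 32307 were mitochondrial. The summed mitochondrial level in CPM (UMIs scaled to a total of 1000000) was 2.87-fold higher in the former (2.83 to 2.91), as the selection requires. In sums of this kind, fewer barcodes with a gene and less of its RNA per barcode cannot be told apart. The 4 mRNAs used as markers, ND5, CYTB, ND4 and COX3, gave 51.3% of the mitochondrial UMIs in the mitochondrial-rich and 46.4% in the mitochondrial-low barcodes.

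All of the 13 mRNAs were higher in the mitochondrial-rich barcodes, but not by the same factor. Since their sum chose the barcodes, the values are a description. Among the subunits of cytochrome c oxidase (complex IV), which passes electrons to oxygen, COX3 had 9357 UMIs and was found in all 436 barcodes, with a median of 18 UMIs per barcode against 6. Its level was 10878 against 3548 CPM, a ratio of 3.07 (2.98 to 3.16). COX2 stood 2.71-fold higher with 6218 UMIs and COX1 2.53-fold higher (2.42 to 2.64) with 3996. CYTB, the mitochondrially encoded subunit of complex III, had 4539 UMIs and the highest ratio, 3.45 (3.30 to 3.60), or 5277 against 1531 CPM. It was detected in 99.8% of mitochondrial-rich and 88.8% of mitochondrial-low barcodes.

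The NADH dehydrogenase subunits of complex I, the entry point of electrons from NADH, spread the most. ND5 (731 UMIs), ND4 (2505) and ND4L (129) had ratios of 3.30 (2.96 to 3.68), 3.08 (2.91 to 3.26) and 3.22 (2.48 to 4.19). ND2 stood at 2.93 with 2467 UMIs and ND1 at 2.54 with 1576. ND3 was only 1.98-fold higher (1.77 to 2.21), with 556 against 780 UMIs. ND6, the sole protein gene on the other strand of the mitochondrial genome, was 1.36-fold higher (1.16 to 1.59), at 271 against 199 CPM, and had a UMI in 35.6% against 29.8% of barcodes. Of the ATP synthase subunits, ATP6 stood at 2.69 (2.48 to 2.93), while ATP8, with 18 UMIs, stood at 2.08 with an interval from 1.06 to 3.998. The intervals of ND3 and ND6 lie below those of the other mRNAs with over 1000 UMIs in these barcodes. ATP8 overlaps ATP6 and ND4L overlaps ND4, so their reads may be shared out by the counting. How the counting treated strand is not given in the sources used here, which bears on ND6, whose end meets that of ND5.

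**Figure D2:**
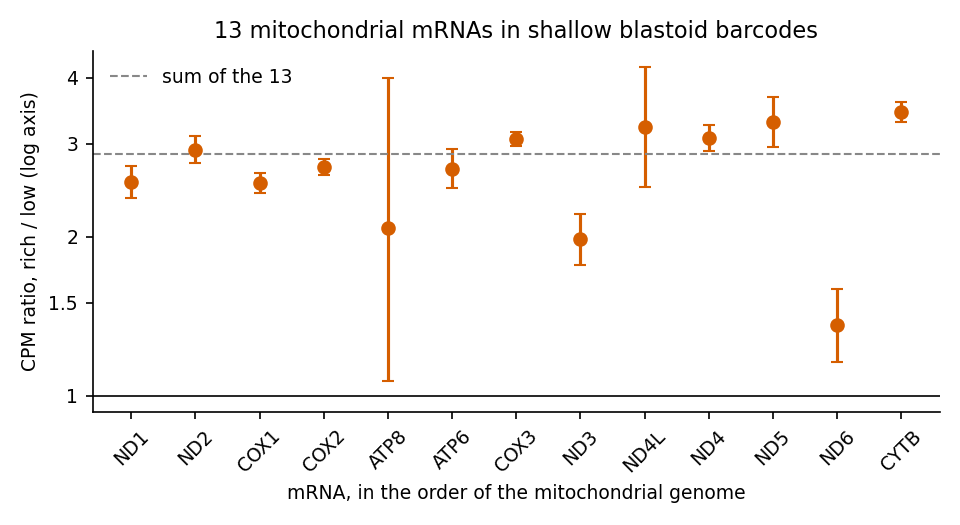
Ratio of CPM in the 436 mitochondrial-rich over the 1220 mitochondrial-low shallow blastoid barcodes (y axis, log scale) for each mitochondrial mRNA in genome order (x axis), with exact 95% counting intervals, and the ratio of their sum as a dashed line. ND6 at 1.36 and ND3 at 1.98 lie below the line at 2.87, and CYTB at 3.45 lies above it.

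The shares of some of the 13 mRNAs in the mitochondrial RNA moved with the mitochondrial share. Others, such as ND2 and COX2, had no steady order. Over shallow blastoid barcodes with under 0.5%, 0.5% to 1%, 1% to 2.5%, 2.5% to 5% and 5% to 10%, ND6 gave 3.74%, 2.32%, 1.28%, 0.728% and 0.623% of mitochondrial UMIs. The first of these rests on 13 UMIs and the last on 61. ND3 gave 4.02%, 2.97%, 2.29%, 1.65% and 1.71%. ND5 went the other way, from 0.575% through 1.76%, 1.95% and 2.10% to 2.39%. The first ND5 value rests on 2 UMIs, and its interval (0.0697% to 2.06%) holds 1.76% and 1.95%. CYTB took 10.9%, 9.79%, 11.6%, 13.5% and 13.7%. The deep barcodes, with a median mitochondrial share of 0.446%, did not continue this series. ND6 gave 0.776% (0.662% to 0.905%) of their mitochondrial UMIs, CYTB 13.5% (13.1% to 14.0%) and ND5 2.04% (1.85% to 2.24%), with intervals that overlap those of the mitochondrial-rich barcodes, at 0.697% (0.611% to 0.792%), 13.6% (13.2% to 14.0%) and 2.19% (2.03% to 2.35%). ND3 gave 2.10% (1.91% to 2.31%) in deep and 1.66% (1.53% to 1.81%) in mitochondrial-rich barcodes, intervals that do not overlap. In shallow barcodes of the blastocyst, at 2.5% to 10% against below 2.5%, ND6 gave 0.584% (0.392% to 0.838%) against 0.737% (0.368% to 1.31%) of mitochondrial UMIs. ND3 gave 2.96% (2.51% to 3.47%) against 2.48% (1.75% to 3.40%), CYTB 12.9% (11.9% to 13.8%) against 12.2% (10.6% to 14.0%), and ND5 1.27% (0.977% to 1.62%) against 0.536% (0.232% to 1.05%). All 4 pairs of intervals overlap, and the lower ND5 value rests on 8 UMIs. As a ratio of levels, ND5 stood at 17.9 (8.54 to 43.2) in the blastocyst, where the sum of the 13 mRNAs stood at 7.55 (7.13 to 8.01).

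**Figure D3:**
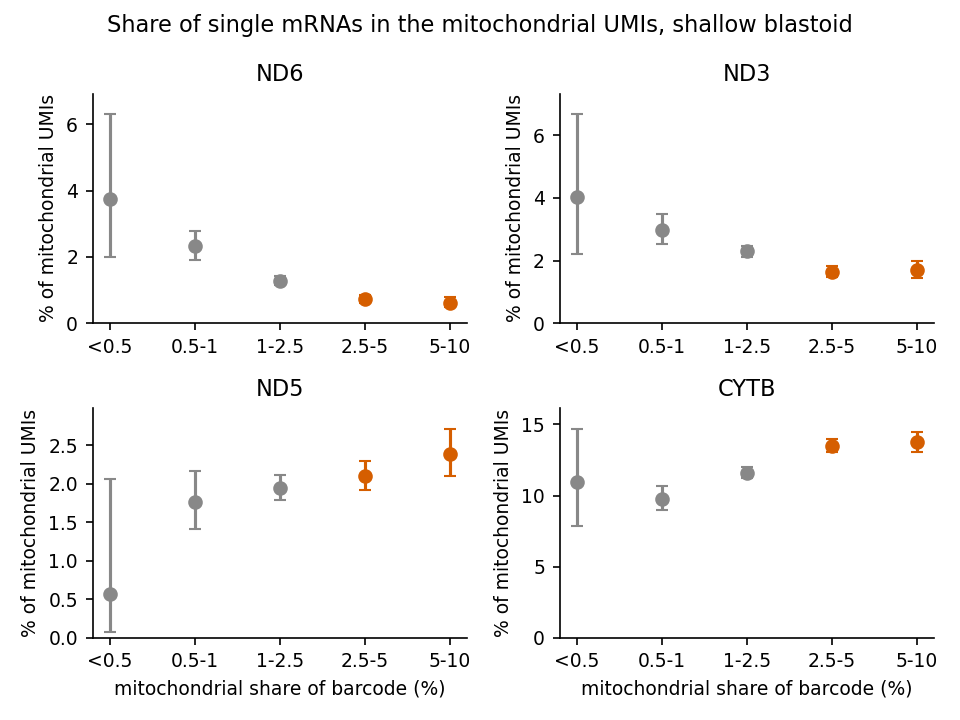
Percentage of mitochondrial UMIs given by ND6, ND3, ND5 and CYTB (y axes, each from 0) in shallow blastoid barcodes grouped by their mitochondrial share (x axis), with exact 95% intervals and orange for the mitochondrial-rich groups. ND6 declines from 3.74% to 0.623%. ND5 goes from 0.575%, which rests on 2 UMIs, to 2.39%.

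With the 13 mRNAs left out, few other genes differed over all 436 barcodes. The 2 sums together held 200 UMIs or more of 2649 genes, of which 6 were at least 1.5-fold higher in the mitochondrial-rich barcodes (0.227% of those compared) and 16 at least 1.5-fold lower (0.604%). The median log2 ratio of all 2649 was -0.03, with quartiles at -0.14 and 0.08. Of these 22, 3 had an interval lying wholly beyond 1.5-fold, and all 3 were features without a gene symbol. When only the 70 barcodes from 5% were taken as mitochondrial-rich, 61 of 2029 genes compared were higher and 230 lower. The median log2 ratio of those 2029 was -0.0992, below the -0.03 of the 2649. Those 70 barcodes held 137988 non-mitochondrial UMIs, with a median of 24 UMIs for the higher and 8 for the lower genes. An interval lay wholly beyond 1.5-fold for 3 of the 61, again features without a symbol, and for 2 of the 230, ARL14EP with 3 UMIs and PDCD5 with 5 in the 70 barcodes, named after their values were seen.

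The 3 features are listed in the files by identifier only and are singled out here after their values were seen. ENSBTAG00000043567 had 19272 against 22676 UMIs, at a ratio of 2.42 (2.37 to 2.47). It made up 2.24% of all UMIs of the mitochondrial-rich barcodes, 0.950% of those of the mitochondrial-low and 0.280% of those of deep barcodes. ENSBTAG00000043570 had 10921 against 14054 UMIs, at a ratio of 2.21 (2.16 to 2.27), and made up 1.27%, 0.589% and 0.148%. The other one was far scarcer, with 325 against 289 UMIs, and had the highest ratio at 3.20 (2.72 to 3.76). Over the 5 groups of shallow barcodes by rising mitochondrial share, ENSBTAG00000043567 took 0.488%, 0.668%, 1.09%, 1.93% and 3.76% of all UMIs, and ENSBTAG00000043570 took 0.372%, 0.450%, 0.655%, 1.10% and 2.11%. Both were thus higher at each step. The scarce one stood at 76.1 (7 UMIs), 60.8 (39 UMIs), 147, 321 and 649.6 CPM of all UMIs, with no step up between the first and the second group. In the same split of the blastocyst ENSBTAG00000043567 had 3191 against 561 UMIs (ratio 13.6, 12.4 to 14.9), ENSBTAG00000043570 had 1627 against 425 (ratio 9.15, 8.22 to 10.2) and the scarce one had 35 against 4. Against deep blastoid barcodes, where ENSBTAG00000043570 had 6371 UMIs, its ratio was 8.90. What these features are is not known from the files, and they were counted among the nuclear genes. As they are abundant, they lower every other ratio slightly. With all 3 left out of the totals, a choice made after the data were seen, the median log2 ratio of all genes compared was 0.00364 in place of -0.03, and 6 genes were higher and 12 lower.

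Of the genes with symbols, 3 were higher. FBLN2, the extracellular matrix protein fibulin 2, was found in 157 of 436 (36.0%) and 317 of 1220 (26.0%) barcodes, at 255 CPM (222 to 292) against 164 CPM (148 to 181), a ratio of 1.56 (1.31 to 1.85). Over the 5 groups of mitochondrial share used above, it stood at 76.4 CPM (7 UMIs), 181, 162, 242 and 319 CPM (44 UMIs), with no steady order below 2.5%. CCNB2, a cyclin of mitosis, had 75 against 139 UMIs, a ratio of 1.54 (1.14 to 2.05). USP9X, a deubiquitinase on the X chromosome, had 77 against 139 UMIs, a ratio of 1.58 (1.18 to 2.10). It lies under the level of 100 CPM set for naming genes and is given because only 3 genes were higher. Next in order, and short of 1.5-fold, came TPRKB at 1.45, the transcriptional repressor HES6 at 1.42, and PRKCSH, a subunit of glucosidase II of the endoplasmic reticulum, at 1.40 (1.11 to 1.76). They were followed by the RNA polymerase II subunit POLR2G at 1.37, B3GAT3 at 1.36, and the amino acid transporter SLC1A5 and the chaperone partner SDF2L1, both at 1.34.

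The lower genes had few UMIs, from 204 to 484 in the 2 sums together. SRP14, part of the signal recognition particle, had 51 against 241 UMIs, a ratio of 0.60 (0.44 to 0.82). The chloride channel protein CLIC4 had 79 against 356 UMIs (0.63, 0.49 to 0.81), and the RNA-binding protein CAPRIN1 had 90 against 394 (0.65, 0.51 to 0.82). CISD1, an iron-sulfur protein of the outer mitochondrial membrane, had 63 against 276 (0.65, 0.49 to 0.86), and IDH3A, a subunit of the isocitrate dehydrogenase of the citric acid cycle, had 37 against 167 (0.63, 0.43 to 0.90). CTNNA2, a cell adhesion gene of great length, had 40 against 181 (0.63, 0.44 to 0.89). The direction of CTNNA2 turned when only the 70 barcodes from 5% were taken, where 12 UMIs gave 87.0 CPM against 76.9 and a log2 ratio of 0.18. The other lower genes with symbols, all under 100 CPM and named after their values were seen, were B4GALT6, BMPR2, FXYD6, HINT2, LUZP1, SREK1IP1, USP3, UTP3 and WBP11, at 0.60 to 0.67. The intervals of all 15 reach above 0.67.

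The nuclear-encoded partners of the 13 proteins had a summed level close to that of mitochondrial-low barcodes. Of 80 listed genes, for nuclear subunits of the respiratory complexes and ATP synthase and for cytochrome c, 70 were in the files and 67 had 200 UMIs, of which 0 were past 1.5-fold, a count near the background of 0.227% higher and 0.604% lower. Their median log2 ratio was -0.02, beside -0.03 for all genes compared. Summed, they stood at 17276 CPM in the mitochondrial-rich and 17503 CPM in the mitochondrial-low barcodes, a ratio of 0.987 (0.968 to 1.01), where the mitochondrial mRNAs stood at 2.87. Within complex IV, whose 3 core subunits were 2.53-fold to 3.07-fold higher, the listed nuclear subunits and cytochrome c together had a ratio of 1.00 (0.955 to 1.05). COX4I1, the largest nuclear subunit, had 496 against 1381 UMIs, or 599.9 against 587 CPM (1.02, 0.92 to 1.13). COX6C and COX7A2 stood at 1.03 (0.94 to 1.13) and 0.95 (0.86 to 1.05).

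Complexes III and II had summed ratios of 1.02 (0.966 to 1.075) and 1.04 (0.904 to 1.19), with CYC1, the cytochrome c1 subunit, at 1.12 (0.98 to 1.27), UQCRC1 at 0.72 (0.52 to 0.97) and SDHC at 1.25 (0.95 to 1.65). ATP synthase stood at 0.988 (0.959 to 1.02), from 0.87 (0.79 to 0.95) for ATP5MC3, a subunit of the membrane ring, to 1.10 (0.96 to 1.25) for ATP5PO. Complex I, with 31 subunits compared, stood at 0.960 (0.926 to 0.995). Its subunits ran from 0.80 (0.665 to 0.957) for NDUFC1 to 1.25 (0.97 to 1.60) for NDUFA5. With the 3 features of unknown name left out of the totals, complex I stood at 0.981 (0.946 to 1.02) and all 70 nuclear subunits at 1.01 (0.990 to 1.03), so the side of 1 on which the sum lies depends on them.

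Genes that make, maintain and use the mitochondrial genome were no higher either. The 27 genes for replication, transcription and RNA handling of mitochondrial DNA stood at 902 against 939 CPM, a ratio of 0.961 (0.884 to 1.05). TFAM, which packages the mitochondrial genome and starts its transcription, had 43 against 112 UMIs (1.09, 0.75 to 1.57). LRPPRC and SLIRP, which together stabilize mitochondrial mRNAs, stood at 0.91 (0.73 to 1.12) and 0.88 (0.72 to 1.08). The mitochondrial ribosome, with 74 genes, stood at 0.951 (0.919 to 0.985) and import and membrane dynamics at 0.945 (0.900 to 0.991), but at 0.972 (0.939 to 1.01) and 0.965 (0.920 to 1.01) without the features of unknown name. Glycolysis stood at 0.955 (0.925 to 0.987), or 0.976 (0.945 to 1.01) without those features, and biogenesis regulators at 0.978 (0.839 to 1.14). The list of mitochondrial chaperones, proteases and mitophagy genes stood at 0.963 (0.915 to 1.01), where HSPD1, the matrix chaperonin, had 562 against 1689 UMIs (0.95, 0.86 to 1.04). The citric acid cycle stood at 0.939 (0.864 to 1.02), with 1 of 7 compared genes lower (IDH3A), beside 0.604% of all genes compared.

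Markers of cytoplasm and of nuclear RNA, which differ in opposite directions between shallow and deep barcodes, were compared next. The 70 cytosolic ribosomal protein genes gave 16.1% of non-mitochondrial UMIs in the mitochondrial-rich and 16.4% in the mitochondrial-low barcodes, against 2.61% in deep barcodes. Their ratio was 0.981 (0.975 to 0.988), and 1.00 (0.997 to 1.01) with the 3 features of unknown name left out of the totals. Over the 5 groups of rising mitochondrial share, their part was 15.9%, 16.4%, 16.5%, 16.3% and 15.2%. The lowest was in the 70 barcodes from 5%. The totals of these groups keep the 3 features, and ENSBTAG00000043567 alone took 3.76% of all UMIs of those 70 barcodes. The parts without the features were not computed for the 5 groups. The elongation factor gene EEF1A1 stood at 1745 against 1826 CPM. In contrast, 26 very long genes, whose nuclear RNA is mostly intron, gave 1661 against 1843 CPM, a ratio of 0.901 (0.848 to 0.958), and 0.921 (0.866 to 0.979) without those features. Over the 5 groups the long genes stood at 2433, 1859, 1803, 1680 and 1565 CPM. Of the 10 long genes with 200 UMIs, 1 was lower (CTNNA2), beside 0.604% of all genes compared. NAALADL2 had 136 against 360 UMIs (1.08, 0.88 to 1.31). The long-gene level therefore differed between the ends of the mitochondrial range by more than counting error, at 2433 CPM (2124 to 2774) against 1565 CPM (1364 to 1789). The low end rests on 223 UMIs in 50 barcodes. The interval of the group with 0.5% to 1%, 1755 to 1968 CPM, overlaps that of the top group. These totals too keep the 3 features. Per barcode the median was 3 long-gene UMIs in both groups, or 0.150% against 0.164% of non-mitochondrial UMIs, and 39 of 436 against 69 of 1220 barcodes had none.

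**Figure D4:**
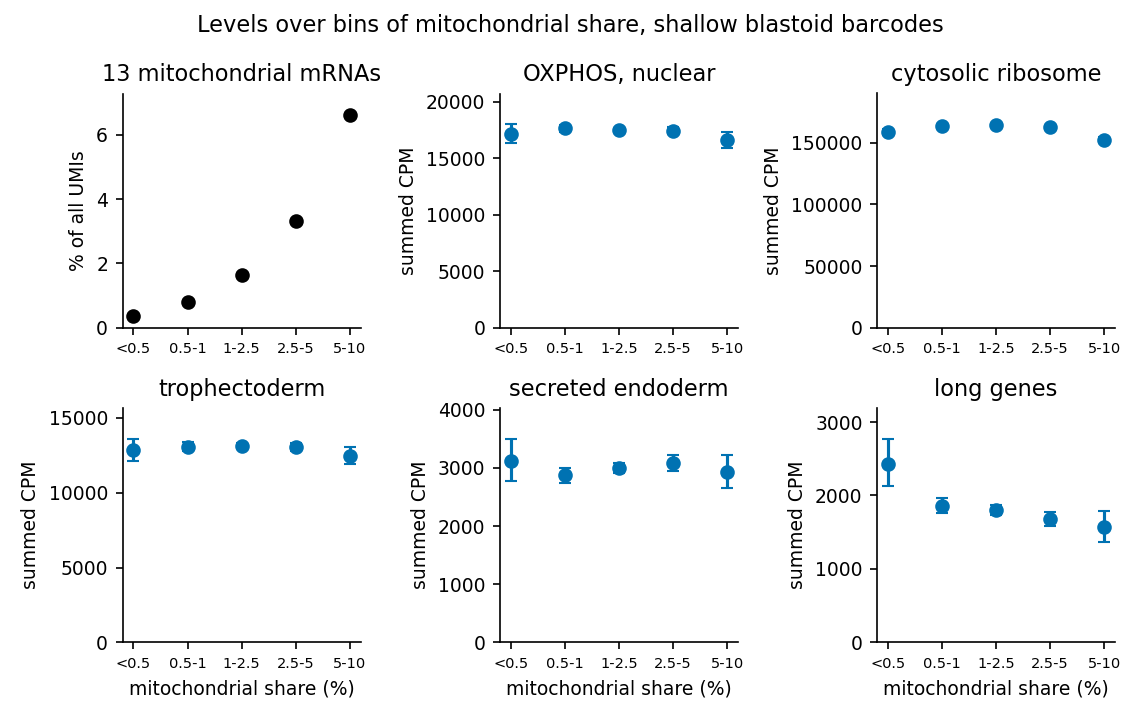
Percentage of all UMIs from the 13 mitochondrial mRNAs (first panel) and summed CPM over non-mitochondrial UMIs of 5 gene lists (other panels, y axes from 0) in shallow blastoid barcodes grouped by mitochondrial share (x axis), with exact 95% Poisson intervals for the lists. The mitochondrial sum goes from 0.378% to 6.63%, and the nuclear OXPHOS list stays between 16596 and 17628 CPM. The long genes go from 2433 CPM, which rests on 223 UMIs in 50 barcodes, to 1565 CPM.

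Lineage markers of the mitochondrial-rich barcodes lay close to those of other shallow barcodes of the library, with the hypoblast list slightly higher. The 23 trophectoderm markers, genes of the outer layer that founds the placenta, stood at 12947 against 13109 CPM, a ratio of 0.988 (0.966 to 1.01). The keratin KRT18 had 5254 against 14987 UMIs (1.00, 0.97 to 1.03) and KRT8 2031 against 5920 (0.98, 0.93 to 1.03). The transcription factor GATA2 had 122 against 343 UMIs (1.01, 0.82 to 1.25), and GATA3 had 39 against 152 (0.73, 0.50 to 1.04). Placental genes stood at 1.02 (0.984 to 1.05), where the trophoblast gene PAGE4 had 1271 against 3588 UMIs (1.01, 0.95 to 1.08) and CGA, the hormone alpha subunit, 301 against 882 (0.97, 0.85 to 1.11).

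Secreted carrier proteins of endoderm stood at 1.03 (0.984 to 1.08). Among them APOE had 418 against 1028 UMIs, or 505.6 against 437 CPM (1.16, 1.03 to 1.30), AFP 245 against 597 (1.17, 1.00 to 1.36), 32 of the 245 in 1 barcode, and APOA1 1017 against 3052 (0.95, 0.88 to 1.02). The 24 hypoblast markers stood at 1.07 (1.01 to 1.13), with 4 of 4 compared genes above 1, beside 42.5% of all genes compared, and 0 past 1.5-fold. The basement membrane collagen COL4A1 had 135 against 303 UMIs (1.27, 1.03 to 1.56), and another collagen, COL18A1, just under the UMI limit for the comparison, 67 against 130 (1.47, 1.08 to 1.98), but the laminin LAMB1 had 32 against 141 (0.65, 0.43 to 0.95). Epiblast markers stood at 1.01 (0.921 to 1.10). Mesoderm and fibroblast markers, lists for other cells that the cultures could hold, stood at 1.24 (0.960 to 1.60) and 0.995 (0.903 to 1.10), and blood markers had 24 against 68 UMIs.

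Counts per barcode were set side by side for the mitochondrial-rich and the mitochondrial-low. Nuclear OXPHOS genes gave a median of 32.5 UMIs per barcode (quartiles 27 and 38) against 33 (28 and 39), and trophectoderm markers 24 against 25. No secreted endoderm UMI was found in 6 of 436 against 10 of 1220 barcodes, and no epiblast UMI in 102 against 317.

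Detection of single genes was compared with each barcode thinned to 1000 UMIs, which left out 0 mitochondrial-rich, 4 mitochondrial-low and 0 deep barcodes. Median depths before thinning were 1901.5, 1931.5 and 13048 UMIs. A UMI of PAGE4 was found in 72.9% (68.5% to 77.1%) of mitochondrial-rich, 73.4% (70.8% to 75.8%) of mitochondrial-low and 22.2% (17.6% to 27.5%) of deep barcodes. For AFP the shares were 20.2%, 19.7% and 4.17%, for CGA 26.8%, 29.2% and 9.03%, and for COX4I1 41.7%, 43.1% and 13.2%. Also after thinning, KRT18 was found in 99.8%, 99.7% and 69.1%. HNF4A and GATA4, hypoblast transcription factors, had a UMI in 0 of 436 mitochondrial-rich barcodes, with or without thinning. At 3 counts this allows up to 0.688% of barcodes with a UMI at this depth, and says nothing of barcodes that express the genes below it. LIN28B, an RNA-binding protein of early development, went the other way, with thinned shares of 7.34%, 7.73% and 27.4%. Thinned, GATA2 stood at 14.2%, 13.4% and 17.4%, with overlapping intervals. Without thinning, deep barcodes had higher shares than after it: AFP was found in 34.6%, 34.3% and 39.2%, COX4I1 in 62.8%, 64.8% and 81.6%, LIN28B in 15.4%, 14.0% and 86.8%, and KRT18 in 100%, 99.8% and 100%. Free RNA can give UMIs in barcodes whose cells do not express a gene, and its part was not tested.

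The intervals of the stress lists held 1 on the totals used throughout. The p53 and apoptosis list stood at 1.08 (0.985 to 1.19), the integrated stress response at 0.999 (0.947 to 1.05), heat shock and immediate early genes at 0.965 (0.923 to 1.01), antioxidant genes at 0.976 (0.948 to 1.01) and hypoxia genes at 0.984 (0.915 to 1.06). ATF4, the effector of the integrated stress response, had 206 against 683 UMIs (0.86, 0.73 to 1.00) and HSPA5, the chaperone of the endoplasmic reticulum, 1110 against 2964 (1.07, 0.99 to 1.14). Genes of G2 and M phase stood at 0.935 (0.895 to 0.977) with 1 of 19 compared genes higher (CCNB2), beside 0.227% of all genes compared, and HMGB2 at 0.86 (0.76 to 0.97). MKI67 was found in 20.0% of thinned mitochondrial-rich and 19.9% of mitochondrial-low barcodes. Over all 31 lists with genes in the files, counting each complex and not their sum, 9 had an interval without 1. With the 3 features of unknown name left out of the totals 6 had. Long genes and G2/M genes (0.956, 0.915 to 0.998) stayed below 1 and the hypoblast list above it (1.09, 1.03 to 1.16). The secreted endoderm (1.05, 1.01 to 1.10), placental (1.04, 1.01 to 1.07) and p53 (1.11, 1.01 to 1.22) lists came to lie above 1.

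Deep barcodes were another matter. Of 5471 genes with 200 UMIs, 1148 were at least 1.5-fold higher in the mitochondrial-rich barcodes (21%) and 3429 at least 1.5-fold lower (62.7%), so the counts below are read beside a background in which most genes differ. Of 66 compared ribosomal protein genes 66 were higher, with a summed ratio of 6.17 (6.125 to 6.22). Nuclear OXPHOS subunits were higher in 56 of 62 and lower in 1, at 4.25 (4.16 to 4.34). The 21 secreted endoderm proteins summed to 6.12 (5.78 to 6.49). The 26 long genes summed to 0.110 (0.104 to 0.116), with DCC, a guidance receptor, at 68.9 against 1140 CPM, 549 of its 4891 deep UMIs in 1 barcode. The 11 regulators of mitochondrial biogenesis summed to 0.359 (0.313 to 0.410), among them the transcription factor NRF1 with 20 against 537 UMIs and the nuclear receptor ESRRG with 32 against 1166.

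These values were not particular to mitochondrial-rich barcodes. Set against the same deep barcodes, which both comparisons share, the mitochondrial-low barcodes stood at 6.29 for ribosomal proteins, 4.30 (4.23 to 4.38) for nuclear OXPHOS subunits, 5.94 for secreted endoderm proteins and 0.122 for long genes. Among genes with a symbol outside the lists, the high end against deep barcodes held the proteasome assembly chaperone PSMG4 at 8.00 (6.26 to 10.2), the RNA polymerase subunit POLR2L at 7.87 and the translocon subunit SEC61G at 6.92. The lowest were the synaptic scaffold gene SHANK2 with 4 against 869 UMIs and the potassium channel gene KCNH7 with 5 against 1064, of which 494 UMIs lay in 1 deep barcode. 

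In the blastocyst library the same rule found 55 mitochondrial-rich and 85 mitochondrial-low shallow barcodes, and there many other genes differed along with mitochondrial RNA. Depth differed too, with medians of 1256 and 2419 UMIs, unlike in the blastoid, and its part in the values below was not tested. The mitochondrial sum was 7.55-fold higher (7.13 to 8.01). Only 88 genes reached 200 UMIs in the 2 sums, of which 49 were at least 1.5-fold higher (55.7%) and 24 at least 1.5-fold lower (27.3%). Ribosomal proteins were at 70552 against 31274 CPM, a ratio of 2.26 (2.18 to 2.34), with 25 of 25 compared genes higher. Nuclear OXPHOS subunits stood at 1.82 (1.68 to 1.97), trophectoderm markers at 2.61 (2.36 to 2.87) and long genes at 0.565 (0.496 to 0.641). KRT8 had 216 against 171 UMIs (ratio 3.02, 2.46 to 3.71), with 41 and 31 of them in 1 barcode each. KRT18, also a trophectoderm marker, had 465 against 395 UMIs, with 120 and 88 of them in 1 barcode each. The tetraspanin gene CD9 had 180 against 148 UMIs (ratio 2.91). In the blastoid the ratios of these 4 lists were 0.981, 0.987, 0.988 and 0.901. The libraries thus differed in what accompanied mitochondrial RNA in shallow barcodes, but with 1 library each this was not tested and compares these libraries, not the conditions.

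**Figure D5:**
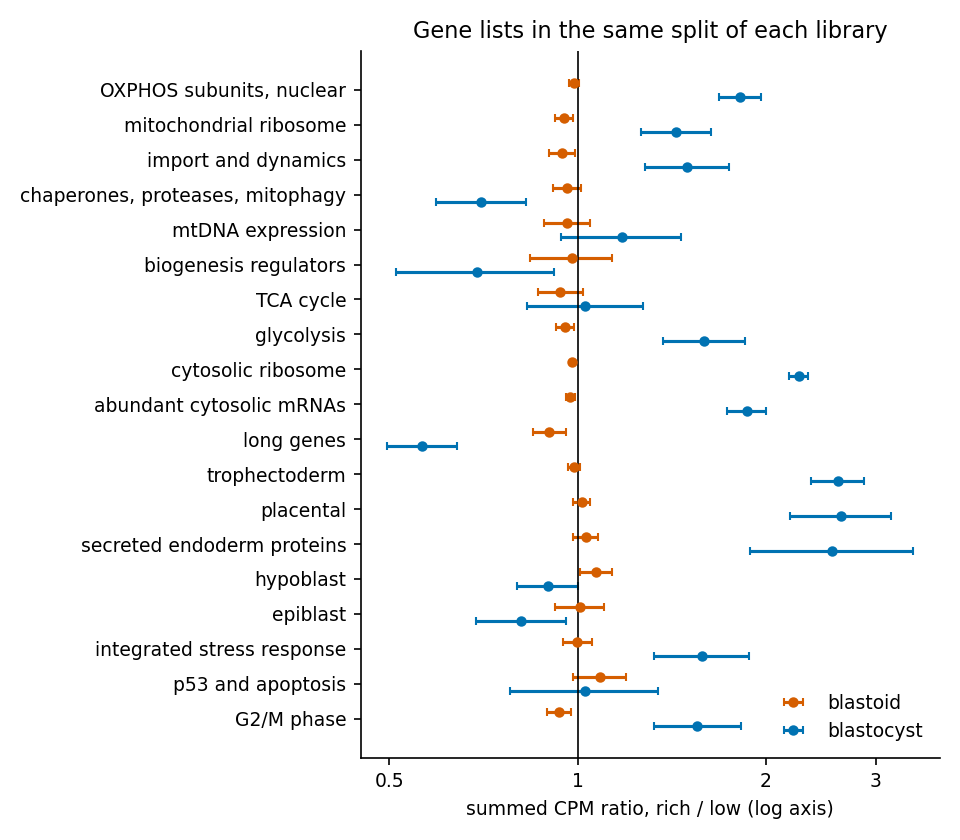
Ratio of summed CPM over non-mitochondrial UMIs in mitochondrial-rich over mitochondrial-low shallow barcodes (x axis, log scale) for 19 gene lists (y axis), in the blastoid (orange, 436 and 1220 barcodes) and the blastocyst (blue, 55 and 85 barcodes), with exact 95% counting intervals. The blastoid lists lie between 0.901 and 1.08, and the blastocyst lists between 0.565 for long genes and 2.63 for placental genes.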

How the data were processed

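The deposited matrices, 1 per library, are UMI counts. Cell Ranger 7.2.0 wrote them, per the file headers. The submitters' processing notes name Cell Ranger 7.1.0 and Seurat 4.3.0. Aligner settings, genome build and cell calling are not given in the sources used here. Both matrices list 35643 features. Rows that share a symbol were summed (94 symbols), and 0 Ensembl identifiers matched the RefSeq table (ARS-UCD2.0), which served only for the order of the mitochondrial genes.

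Counts were summed over the barcodes of a group. CPM of other genes was taken over non-mitochondrial UMIs, that of mitochondrial mRNAs and of the features without symbol, where so stated, over all UMIs. Ratios carry exact conditional, sums exact Poisson and shares exact Clopper-Pearson intervals at 95%, which cover counting error only. The limit for a share of 0 is 3 counts. Sums under 3 UMIs were set to 3 in ratios. A gene counted as higher or lower at 1.5-fold or more with at least 200 UMIs in the 2 sums. No test was run, since barcodes are not replicates. Thinning drew UMIs without replacement. Python 3.11.15, numpy 2.4.6, scipy 1.17.1, pandas 2.3.3 and scanpy 1.11.5 (Scrublet) were used, and the steps were tested on simulated data.

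Named genes are the 13 mitochondrial mRNAs, genes of the lists with at least 100 UMIs in the 2 sums and, for each comparison, 10 further symbols at either end of the ratio, given 200 UMIs together and 100 CPM in the higher sum. Genes outside the lists and under 100 CPM, such as USP9X and B4GALT6, are marked as such where they are named. The barcodes and gene lists were chosen with earlier results of these data known. A list of 6 nuclear RNAs matched no symbol and was not analysed here. Alternatives covered the limits on mitochondrial share, UMIs and genes, thinning, doublet removal, scaling and the UMI minimum.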

Additional observations from a re-analysis of the deposited data

Results flagged for a closer look

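In 7 gene lists the split by mitochondrial share went opposite ways in the libraries, with a blastoid interval below 1 and a blastocyst interval above 1. Each is given as the ratio of summed CPM, mitochondrial-rich over mitochondrial-low shallow barcodes, and the difference between libraries was not tested. Cytosolic ribosomal proteins stood at 2.26 in the blastocyst and 0.981 in the blastoid, and abundant cytosolic mRNAs at 1.86 and 0.973. Nuclear subunits of complex I stood at 1.62 and 0.960, the mitochondrial ribosome at 1.44 and 0.951, and mitochondrial import and dynamics at 1.496 and 0.945. Glycolytic enzymes stood at 1.59 and 0.955, and genes of G2 and M phase at 1.55 and 0.935. With the 3 features of unknown name left out of the totals, the blastoid interval stayed below 1 only for G2/M genes (0.956, 0.915 to 0.998). The blastocyst groups, of 55 and 85 barcodes, also differed in depth (medians of 1256 and 2419 UMIs).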

How the results depend on the processing

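No paired analysis was possible because each group had 1 library. The count of genes at least 1.5-fold higher (6) and lower (16) in mitochondrial-rich than mitochondrial-low barcodes moved with several settings. With a minimum of 100 UMIs it was 49 and 142, and with mitochondrial-rich barcodes from 5% only (70 barcodes) it was 61 and 230 of 2029 compared. A 2-fold limit gave 3 and 0. The count of lower genes was 0 with a minimum of 500 UMIs, 5 against barcodes under 1%, 6 with a limit of 2% between the groups and 5 after thinning to 1000 UMIs. It was 27 over the 234 and 930 barcodes whose own interval lay wholly on their side of 2.5%, an alternative chosen after seeing the data. The ribosomal protein share of mitochondrial-rich barcodes (16.1%) was 15.2% from 5%, 15.9% over those 234 barcodes, 16.3% with 1500 to 2500 UMIs and 16.3% after thinning. All of these shares keep the 3 features of unknown name in the total. CTNNA2 turned to a log2 ratio of 0.18 from 5%. The causes were not tested. Of the other log2 ratios of named genes under the alternatives, 5960 stayed within the counting interval of the reported value and 183 left it. Of the list medians 400 stayed and 81 moved, and of the shares of barcodes with a UMI, thinned otherwise or not at all, 23 stayed and 29 moved.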
